A study of Cricetiscus sungorus with 24 samples.

Results

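The glutathione and antioxidant genes described here were taken by symbol from kidney transcript tables of Djungarian hamsters. The symbols were those of the glutathione S-transferases (Gsta, Gstm, Gstp, Gstt, Gstk, Gsto, Gstz and Mgst), the glutathione peroxidases (Gpx), the peroxiredoxins (Prdx), Sod1, Sod2 and Sod3, the thioredoxin and glutaredoxin families (Txn and Glrx) and Cat, Gclc, Gclm, Gsr, Gss, Ggt1, Nqo1 and Hmox1. The rule uses symbols and no measured value, and it was written with earlier results of these data known. The rule found 66 genes of the 15960 listed in the study. Of these, 56 of 9681 genes were listed in experiment 1 and 66 of 15842 in experiment 2. A gene is given by its transcript row with most reads.

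Experiment 1 held 12 adult males. Long photoperiod (LP) males had 16 h of light and 8 h of dark, and the others had 8 h of light and 16 h of dark (short photoperiod, SP) for 12 weeks (SP12wk) or 28 weeks (SP28wk), with 4 animals per group. The SP schedule takes hamsters into their winter state, and after about the longer exposure they return to the summer state although the light has not changed. Experiment 2 held 12 adult females after 8 weeks of SP, with 6 animals per group. They were given intraperitoneal injections on 3 days, either of prolactin (PRL, 18 µg per injection) or only of its vehicle of DMSO and saline (SAL). The females in both groups were therefore in SP. RNA came from kidney tissue, so that fewer cells of a type and less RNA per cell cannot be told apart. The 2 experiments differ in sex, flow cell, depth and treatment, and these cannot be told apart in any value set side by side between them.

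Glutathione is a small thiol peptide that cells use to detoxify reactive compounds and to reduce peroxides. Gclc and Gclm form the enzyme that limits its synthesis, Gss completes the peptide, Gsr returns its oxidized form to the reduced one, and Ggt1 cleaves it on the brush border of the proximal tubule. Glutathione S-transferases join it to electrophiles, and glutathione peroxidases use it to reduce peroxides. Superoxide dismutases turn superoxide into hydrogen peroxide, which catalase, peroxiredoxins and peroxidases remove, and thioredoxins keep the peroxiredoxins reduced. The kidney is known for its high use of oxygen, and its proximal tubule secretes much of the plasma form of glutathione peroxidase, Gpx3.

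Libraries of experiment 1 were shallow. They held 15687 to 57585 reads on the 1 transcript row kept per gene, so that 1 read was worth 17.4 to 63.7 CPM (the count scaled to a common library total). Libraries of experiment 2 held 174053 to 756523 reads, and 1 read was worth 1.32 to 5.75 CPM. For a gene with no read, 3 reads are the limit that a count of 0 allows, worth 52.1 to 191 CPM in experiment 1 and 3.97 to 17.2 CPM in experiment 2, for counting error only. Of the 13 proximal tubule markers, 11 were listed in each experiment, with a summed level of 2059 to 4217 CPM in experiment 1 and 1213 to 2771 CPM in experiment 2, and Cubn and Kap were not listed. The 5 blood markers (haemoglobins and Alas2) summed to 14210 to 44110 CPM in the males and 8908 to 19490 CPM in the females. Library LP 2 stood apart, with a median Spearman correlation of 0.42 with the other 11 libraries against 0.51 or more in the others of experiment 1. For SP12wk against LP and SP28wk against LP, the counts of members and the leading fold changes are also given without it. The LP libraries also differed in their share of reads on ribosomal protein genes, at 18.7%, 10.4%, 14.4% and 22.8% for replicates 1 to 4. In SP12wk this share was 17.9% to 19.9% and in SP28wk 18.1% to 21.1%. The part of such differences between LP libraries in the members' values was not tested.

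Member genes took 0.308% to 2.99% of a male library's reads and 1.99% to 3.74% of a female one's. In the LP libraries the share was 1.71%, 0.308%, 0.938% and 1.56% for replicates 1 to 4. In SP12wk it was 1.39%, 1.44%, 2.99% and 2.28%, and in SP28wk 1.21%, 1.99%, 1.89% and 2.11%. LP 2 was the lowest library and SP12wk 3 the highest, and the groups overlapped. In experiment 2 the median share was 3.02% in SAL (2.04% to 3.47%) and 3.11% in PRL (1.99% to 3.74%). The groups again overlapped. The 3 libraries of experiment 2 with the lowest share, PRL 3, SAL 6 and SAL 5, were also the 3 with the lowest summed level of proximal tubule markers (1329, 1213 and 1395 CPM). Experiment 1 did not show this. There LP 2 and LP 3 had the lowest shares, with 2916 and 4217 CPM of these markers, and 4217 CPM was the highest sum. The part of tubule content in the member share was not tested.

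**Figure D1:**
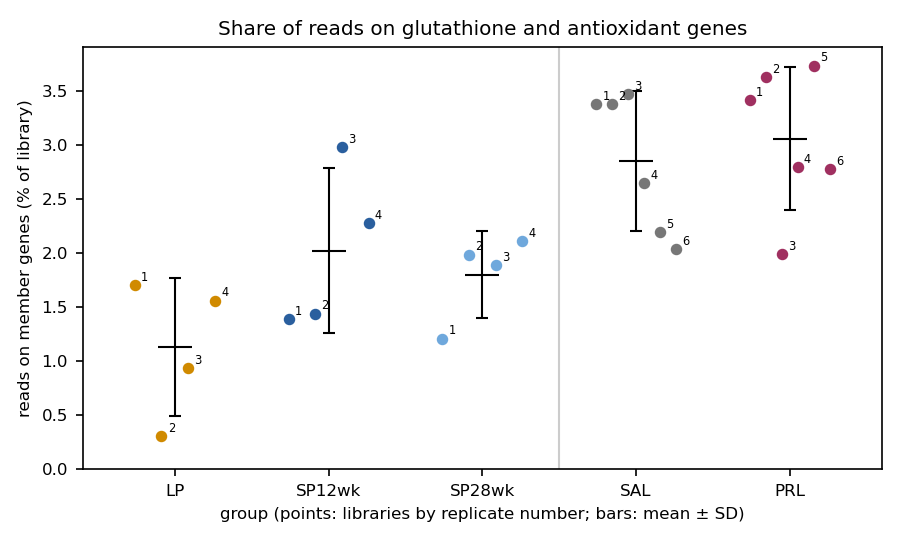
Percentage of each library's reads that fell on member genes (vertical axis, %), by group (horizontal axis). Points are libraries with their replicate number, and bars are the mean ± SD of 4 libraries (LP, SP12wk, SP28wk) or 6 libraries (SAL, PRL). The grey line separates experiment 1 from experiment 2. LP 2 lies lowest at 0.308%, and the groups overlap within each experiment.

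The reads were concentrated on few members. In experiment 1, 5619 reads fell on members, of which 84.5% fell on 12 genes, and 22 of the 56 members had 10 reads or fewer in all libraries together. In experiment 2, 136065 reads fell on members, 78.5% of them on 12 genes, and 5 of 66 members had 10 reads or fewer. The 12 genes were Gpx3, Gpx4, Gpx1, Gsta1, Gsta2, Gsta3, Gstp1, Gstp2, Prdx1, Sod1, Txndc17 and, in experiment 1, Txn1, in whose place experiment 2 had Mgst1. The tables give no transcript lengths, so that levels are compared between libraries for 1 gene and not between genes. The filter on low values kept 42 members in experiment 1, and 14 members with a read in fewer than 4 libraries were not tested. In experiment 2 it kept 61, and 5 were not tested.

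Glutathione S-transferases of the alpha class conjugate electrophiles and also reduce lipid peroxides. Gsta2 had 35, 8, 22 and 30 reads in LP 1 to 4, 26, 20, 58 and 107 in SP12wk, and 32, 32, 67 and 106 in SP28wk. The mean level (± SD, n = 4 each) was 1120 ± 497 CPM for LP, 2068 ± 1043 CPM for SP12wk and 1587 ± 338 CPM for SP28wk. LP 2 was low and SP12wk 3 and 4 were high, and the groups overlapped. Gsta1 had 29, 5, 12 and 20 reads in LP, 12, 16, 36 and 64 in SP12wk, and 26, 18, 34 and 66 in SP28wk. The ratio of Gsta1 to Gsta2 reads was 0.462 to 0.8286 over the 12 libraries. Gsta3 had 0, 0, 3 and 9 reads in LP, 0, 1, 16 and 27 in SP12wk, and 1, 12, 25 and 25 in SP28wk. Each group held libraries at 0 or 1 read and libraries at 9 or more, and the groups overlapped.

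Gstp2 had 18, 2, 18 and 28 reads in LP, 15, 16, 37 and 40 in SP12wk, and 8, 35, 42 and 46 in SP28wk. Gstp1, its neighbour in sequence, had 17, 2, 16 and 27 reads in LP, 15, 15, 33 and 36 in SP12wk, and 8, 32, 36 and 41 in SP28wk. The 2 rows were nearly the same in every library, with 0.857 to 1.00 read of Gstp1 per read of Gstp2 in experiment 1 and 0.886 to 0.929 in experiment 2. The sources used here do not say how hamster reads were shared among such close mouse paralogs, so that the level of a single alpha, mu or pi class gene is uncertain. The mu class was sparse in experiment 1, with 129 reads over its members listed there. Its best covered member, Gstm1, had 4, 0, 0 and 3 reads in LP, 2, 0, 9 and 12 in SP12wk, and 2, 5, 4 and 1 in SP28wk. Reads of Gstm3, another mu class gene, were 2, 0, 0 and 2 in LP, 1, 0, 3 and 7 in SP12wk, and 1, 0, 1 and 0 in SP28wk. SP12wk 3 and 4 were the highest libraries for both genes.

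Among the peroxidases, Gpx3 had 161, 14, 23 and 114 reads in LP, 169, 91, 150 and 149 in SP12wk, and 109, 136, 107 and 511 in SP28wk. The mean level was 3516 ± 3150 CPM for LP, 6112 ± 1455 CPM for SP12wk and 5470 ± 2503 CPM for SP28wk. LP 2 and LP 3 were the lowest libraries, whereas LP 1 was among the highest, so that the groups overlapped. Gpx4, which reduces lipid hydroperoxides in membranes, had 6, 3, 6 and 17 reads in LP, 11, 7, 17 and 38 in SP12wk, and 10, 27, 50 and 52 in SP28wk. Gpx1, the cytosolic peroxidase, had 4, 1, 3 and 10 reads in LP, 3, 1, 13 and 15 in SP12wk, and 4, 17, 35 and 31 in SP28wk. For both genes SP28wk 2, 3 and 4 were the high libraries of their group, and SP28wk 1 fell inside the LP range.

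Prdx1, a peroxiredoxin of the cytosol, had 8, 1, 9 and 25 reads in LP, 4, 0, 51 and 65 in SP12wk, and 9, 22, 50 and 47 in SP28wk. SP12wk held both the lowest and the highest libraries of experiment 1, at 0 and 2560 CPM. The superoxide dismutase of the cytosol, Sod1, had 10, 2, 11 and 19 reads in LP, 13, 14, 24 and 44 in SP12wk, and 22, 28, 56 and 55 in SP28wk. The mean level was 483 ± 270 CPM for LP, 968 ± 331 CPM for SP12wk and 1147 ± 326 CPM for SP28wk. All 4 SP28wk libraries (870 to 1600 CPM) lay above all 4 LP libraries (112 to 738 CPM), and the SP12wk libraries spanned both ranges. Sod2, the mitochondrial dismutase, had 0, 1, 0 and 0 reads in LP, 3, 1, 4 and 2 in SP12wk, and 1, 2, 0 and 1 in SP28wk. Cat, which breaks down hydrogen peroxide in peroxisomes, had 16 reads in all, with 0 to 3 in a library.

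Txn1, the cytosolic thioredoxin, had 19, 6, 12 and 16 reads in LP, 19, 16, 28 and 34 in SP12wk, and 15, 19, 19 and 34 in SP28wk. Txndc17, a thioredoxin-related protein, had 12, 0, 3 and 17 reads in LP, 9, 6, 36 and 43 in SP12wk, and 8, 19, 27 and 41 in SP28wk. SP12wk 3 and 4 were again high for Txndc17, and the groups overlapped for both genes. The enzymes of glutathione synthesis and recycling were barely covered in males. Gclc had 1, 2, 6 and 0 reads in LP, 0, 0, 0 and 3 in SP12wk, and 3, 0, 3 and 0 in SP28wk. Gclm had 0 to 3 reads in a library, Ggt1 0 to 4, Gss 0 to 2 and Gsr 0 to 2. Nqo1, a quinone reductase, had 2 reads in the 12 libraries and Hmox1, the inducible haem oxygenase, had 1, and neither was tested there. Sod3 and Txnrd1 were not listed in experiment 1.

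**Figure D2:**
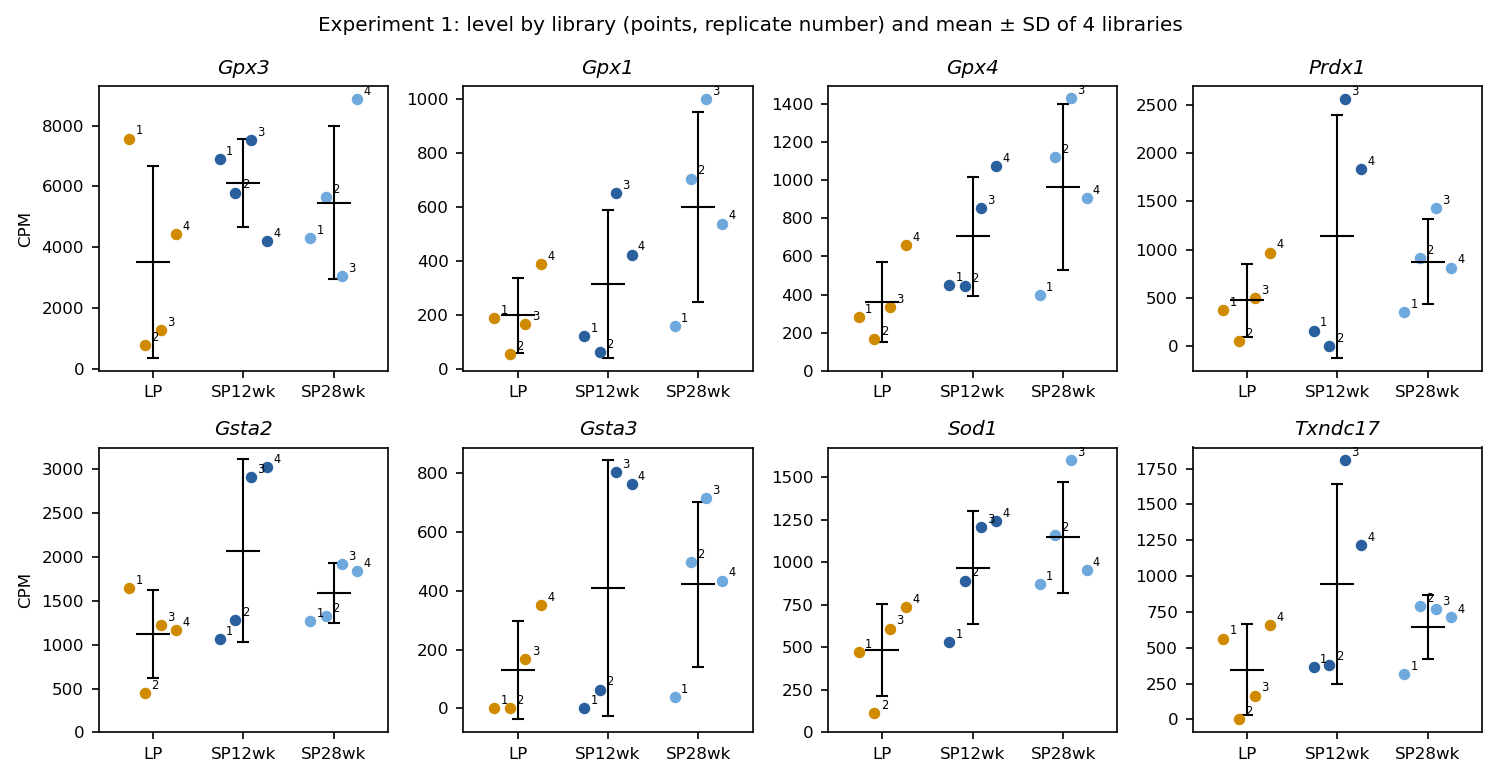
Level in CPM (vertical axes, 1 scale per panel) of 8 members in the 12 libraries of experiment 1, by group (horizontal axes). Points are libraries with their replicate number, and bars are the mean ± SD of 4 libraries. SP12wk 1 and 2 lie low and SP12wk 3 and 4 high for Prdx1, Gsta3 and Txndc17, and the groups overlap for every gene shown except Sod1 between LP and SP28wk.

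Libraries of 1 group thus differed in several members at once. Gsta3 had 0 or 1 read in LP 1, LP 2, SP12wk 1, SP12wk 2 and SP28wk 1. Gstt1, a theta class transferase, had 1, 0, 0 and 4 reads in LP, 1, 0, 8 and 18 in SP12wk, and 1, 8, 15 and 8 in SP28wk, so that it was also at 0 or 1 read in each of those libraries. The 5 lowest ratios of Prdx1 to Gpx3 reads were found in the same libraries, at 0.0497 in LP 1, 0.0714 in LP 2, 0.0237 in SP12wk 1, 0 in SP12wk 2 and 0.0826 in SP28wk 1. Each group held at least 1 of them. Their library totals were 21259 reads in LP 1, 17830 in LP 2, 24465 in SP12wk 1, 15687 in SP12wk 2 and 25301 in SP28wk 1. SP12wk 2 and LP 2 had the lowest totals of experiment 1. LP 3, at 18021 reads, had a ratio of 0.391. What these libraries share, and the part of depth in it, was not tested.

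The comparison of SP12wk with LP and SP28wk together set the winter kidney against the mean of the 2 summer-like groups. A gene can therefore stand out in it through LP alone or SP28wk alone. No member passed an adjusted p of 0.05 in the quasi-likelihood test of edgeR, adjusted over all genes tested by Benjamini-Hochberg, and none passed in DESeq2 either. Of all 5086 genes tested, 0.0393% passed. At an unadjusted p under 0.05, 8 of 42 members were higher in SP12wk, against 3.26% of all genes, and none was lower, against 3.52%. Of these 8, 3 were of the mu class. In SP28wk against SP12wk alone, the log2 fold changes of the 8 ran from -2.59 (Gstm5) to -0.04 (Gstt1), with -0.26 for Prdx1. The median log2 fold change was 0.37 over the members tested and -0.06 over all genes tested, and 30 members were above 0, against 47.7% of all genes. Members share libraries and, for the transferases, reads, so that these counts are not independent of each other. The count of 8 was 1 without SP12wk 3 or without SP12wk 4, the libraries in which several members were high. It was 5 without LP 2, LP 3, SP28wk 1 or SP28wk 4, and 2 with counts added over transcripts or in DESeq2. Over all libraries left out it ranged from 1 to 11. The number of members tested also changed with the library left out, and was 38 without SP12wk 4. For these settings, here and below, the share of all genes at that unadjusted p was not worked out. Without LP 2 the median was 0.22.

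The members with the smallest p in that comparison had few reads. Gstm5, of the mu class, had 7 reads in SP12wk, 5 of them in SP12wk 4, and 1 read in the other 8 libraries. The ratio per library total was 16.5, with a counting interval of 2.12 to 743 (exact, 95%). Gstm5 had a read in 4 libraries, the fewest the filter allows, and 3 of them were SP12wk libraries. It thus passed the filter only through the group in which it was high. It is counted among the members at an unadjusted p under 0.05 in each comparison with SP12wk. Sod2 had a log2 fold change of 2.22 ± 0.90 (SE, adjusted p = 0.667), from 10 reads in SP12wk against 5. For Gstm1 it was 1.39 ± 0.57 and for Txndc17 0.94 ± 0.40, both with an adjusted p of 0.667. Gstm3 and Gsta1 were plotted by the study, which chose them on these samples, so that their direction here is no independent evidence. Gstm3 had a log2 fold change of 1.89 ± 0.82 (adjusted p = 0.667), which ranged from 1.105 without SP12wk 4 to 2.24 without SP12wk 2. Gsta1 had 0.54 ± 0.39 (adjusted p = 0.849, 95% interval -0.23 to 1.31), with a range of 0.23 without SP12wk 4 to 0.84 without SP12wk 1. On the lower side stood Gclc (3 reads in SP12wk against 15), Prdx3 (1 against 7), Cat (3 against 13), Txnip (2 against 11) and Gss (1 against 5). Prdx3 is the mitochondrial peroxiredoxin, and Txnip is an inhibitor of thioredoxin. The counting interval of the ratio held 1 for each of these 5 genes, from 0.0874 to 1.67 for Gclc to 0.00996 to 4.21 for Gss.

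The comparison of SP12wk with LP asked what the shorter SP exposure did. No member passed the adjusted threshold in edgeR or DESeq2, against 0.0197% of all genes in edgeR. At an unadjusted p under 0.05, 12 members were higher in SP12wk, against 4.56% of all genes, and none was lower, against 2.69%. They were spread over the classes, with 3 of the mu class, 2 of the alpha class, Sod1 and Sod2, and 1 each of the theta and microsomal transferases, glutathione peroxidases, peroxiredoxins and thioredoxin-related proteins. Gstt1 had a log2 fold change of 2.25 ± 0.73 (adjusted p = 0.568), from 5 reads in LP and 27 in SP12wk. Gsta3 had 1.77 ± 0.59 and Txndc17 had 1.48 ± 0.50, both with an adjusted p of 0.577. Without LP 2 the 3 values were 1.86, 1.35 and 1.06, each with an adjusted p of 0.804. The smallest p among members below 0 belonged to Gclc, Cat and Prdx3, at -1.51 ± 1.02, -0.63 ± 1.13 and -0.76 ± 1.43, from 3, 3 and 1 reads in SP12wk. These values hang on single libraries. Over the libraries left out Gclc ranged from -4.38 to -0.40, Cat from -1.62 to -0.13 and Prdx3 from -2.42 to -0.30, and without SP12wk 4 no read of Gclc or Prdx3 was left in SP12wk. Of the members tested, 1 did not overlap between the groups, Sod2 (0, 56.1, 0 and 0 CPM against 56.5 to 201 CPM), named after its values were seen. The gap between the groups lay between 1 read in LP 2 and 2 reads in SP12wk 4. Among all genes 1.12% did not overlap in that direction, and 1.55% in the other, where no member stood. The median over members was 0.79, or 0.46 without LP 2, and -0.0013 over all genes. The count of 12 was 8 without LP 2, 20 without LP 4, 5 without SP12wk 3, 2 without SP12wk 4, 2 with counts added over transcripts and 5 in DESeq2. Leaving out LP 4, Gsta3 passed with a log2 fold change of 3.22 ± 0.78 (adjusted p = 0.028). LP 4 was the LP library with most members detected and the highest of its group for Gsta3.

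The comparison of SP28wk with LP set 2 summer-like states against each other. No member passed in edgeR or DESeq2, against 0.216% of all genes in edgeR. At an unadjusted p under 0.05, 11 members were higher in SP28wk, against 6.61% of all genes, and none was lower, against 1.97%. The median was 0.89 over members and 0.18 over all genes, a difference of 0.71. With DESeq2's size factors in edgeR the median of all genes was -0.03 and the difference 0.75, so that this scaling shifted all genes by about as much as the members. Without LP 2 the difference was 0.41 and 6 members were higher, without SP28wk 4 it was 7 members, with counts added over transcripts 2 and in DESeq2 5. Over all libraries left out, 6 to 15 members were higher. Above 0 stood 38 of 42 members, against 58.5% of all genes. The smallest p belonged to the peroxidases Gpx4 and Gpx1, with log2 fold changes of 1.68 ± 0.50 and 1.82 ± 0.54 (adjusted p = 0.122 for both). Next was Gsta3, at 1.92 ± 0.58 (adjusted p = 0.141). Without LP 2 Gpx4, Gpx1 and Gsta3 had 1.36, 1.45 and 1.47, with adjusted p-values of 0.451, 0.578 and 0.777. Gclc (-0.89 ± 0.89), Gstm3 (-1.17 ± 1.21) and the glutaredoxin Glrx3 (-0.26 ± 0.73) were the lowest 3 by p.

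Leaving out a library brought members past the threshold. Without LP 4, 5 members passed in SP28wk against LP, namely Gsta3 (3.36 ± 0.77, adjusted p = 0.00354), Gpx4 (2.30 ± 0.57, adjusted p = 0.0096), Gpx1 (2.51 ± 0.63, adjusted p = 0.0112), Gstt1 (3.80 ± 1.01, adjusted p = 0.0212) and Sod1 (1.91 ± 0.53, adjusted p = 0.0379). These were 5 of 41 members tested in that setting, against 56 of all 4888 genes. LP 4 was the highest LP library in CPM for each of the 5, so that leaving it out widens their difference. Without SP28wk 1, 3 members passed, Gpx1, Gsta3 and Gpx4, with log2 fold changes of 2.15, 2.29 and 1.96 (adjusted p = 0.0344, 0.0346 and 0.0393). These were 3 of 40 members tested in that setting, and the number passing among all 4855 genes is given further below. SP28wk 1 was the lowest SP28wk library for each of these 3. Over all alternatives the adjusted p of Gpx4 ranged from 0.0096 to 0.996 and that of Gsta3 from 0.00354 to 0.996. In CPM, 4 members lay higher in every SP28wk library than in every LP library, Sod1, Prdx4, Prdx5 and Txndc9, named after their values were seen. That was 9.52% of members tested, against 1.57% of all genes, and no member lay lower in every library, against 1.73%. Prdx5, a peroxiredoxin of mitochondria and peroxisomes, had 5, 1, 4 and 7 reads in LP and 7, 13, 13 and 23 in SP28wk. Prdx4, the peroxiredoxin of the endoplasmic reticulum, had 0, 0, 1 and 2 against 4, 2, 4 and 8. The gap of Prdx5 lay between 7 reads in LP 4 (272 CPM) and 7 in SP28wk 1 (277 CPM). That of Prdx4 lay between 2 reads in LP 4 (77.7 CPM) and 2 in SP28wk 2 (83.0 CPM). At equal reads, only the library totals separated the groups for these genes. Txndc9 had 0, 0, 0 and 1 reads in LP and 3, 5, 2 and 6 in SP28wk.

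SP28wk and SP12wk share the light schedule and differ in its length. No member passed in edgeR or DESeq2, against 0.138% of all genes in edgeR. At an unadjusted p under 0.05, 1 member was higher in SP28wk (4.6% of all genes) and 2 were lower (1.49%). The higher one was Gpx1, at 1.04 ± 0.50 (adjusted p = 0.768), and the lower ones were Gstm3 and Gstm5. Gstm3 had 2 reads in SP28wk and 11 in SP12wk, a ratio of 0.122 (0.0132 to 0.56), and Gstm5 had 1 and 7, a ratio of 0.096 (0.00213 to 0.748). Over the libraries left out, 0 to 1 members were higher and 0 to 4 lower at that p. By p, Gstm1 was the next member below 0, at -1.18 ± 0.65, and Gstm4 and Txnip were the next above 0, at 1.59 ± 1.09 and 1.62 ± 1.11. The members' median was 0.15 and that of all genes 0.16, and with DESeq2's size factors they were -0.01 and 0.0038. No member was without overlap, against 1.85% of all genes higher and 1.53% lower. The 4 comparisons of experiment 1 share libraries, and their counts cannot be added up.

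**Figure D3:**
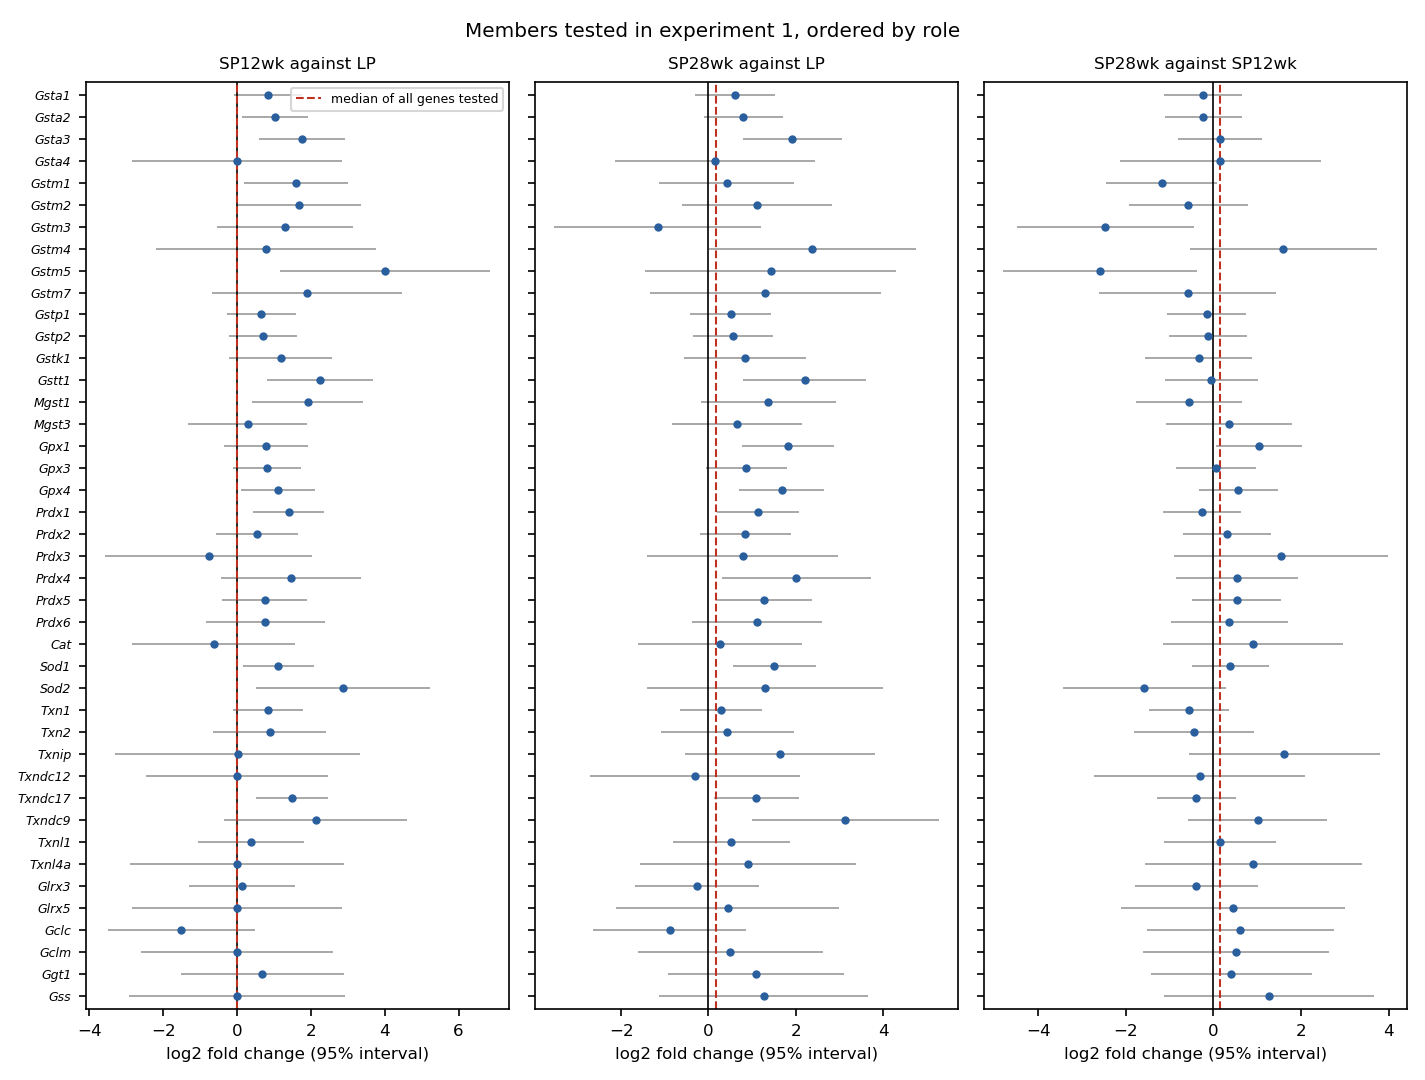
Log2 fold change with its 95% interval (horizontal axes) of the 42 members tested in experiment 1 (vertical axis, by role), for 3 comparisons of 4 against 4 libraries. The black line is 0 and the dashed red line is the median of all 5086 genes tested. Most members lie to the right in both comparisons with LP and around the dashed line in SP28wk against SP12wk, and no member passed the adjusted threshold.

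In experiment 2 the same genes were covered far better, and 52 of 66 members had a read in all 12 libraries. Gpx3 had 834 to 1965 reads in SAL and 640 to 3860 in PRL, with medians of 4004 and 4193 CPM and means of 3974 ± 1123 and 4063 ± 963 CPM (SD, n = 6 each). Prdx1 ranged from 2878 to 6239 CPM (median 4576) under SAL and from 3005 to 8371 CPM (median 5461) under PRL. Gsta2 ranged from 2497 to 4880 CPM (median 3679) and from 2194 to 4366 CPM (median 3759). For all 3 genes SAL and PRL overlapped over most of their range.

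Sod1 had 1092 to 1462 CPM in SAL (median 1313) and 1064 to 1909 CPM in PRL (median 1602). PRL 1, 2, 5 and 6 lay above every SAL library and PRL 3 lay below every one of them. The medians of SAL and PRL were 1633 and 1575 CPM for Gpx4, and 1054 and 984 CPM for Gpx1. Gsta1 had medians of 1345 and 1318 CPM, and Gsta3 of 917 and 1004 CPM. For Gstp2 they were 1297 and 1446 CPM, for Txndc17 1171 and 1160 CPM, for Mgst1, a microsomal transferase, 686 and 730 CPM, and for Txn1 513 and 593 CPM. In each of these genes the ranges of SAL and PRL overlapped.

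Synthesis and recycling genes were measurable in the females. Ggt1 had 33 to 125 reads in SAL and 29 to 294 in PRL, with 260 ± 101 and 244 ± 117 CPM. Gclc had 10 to 23 and 4 to 26 reads (49.8 ± 12.9 against 47.8 ± 25.8 CPM), and Gclm 12 to 25 and 7 to 39 reads (56.6 ± 24.8 and 56.3 ± 20.5 CPM). Gss had 12 to 41 and 14 to 90 reads, and Gsr 2 to 11 and 3 to 17. The levels of Gclc and Gclm in the 2 groups differed by far less than the SD. Sod2 stood at 43.2 ± 8.55 against 43.2 ± 11.6 CPM. Nqo1 had 67 reads in each group. Hmox1 had 12 reads in SAL, 7 of them in SAL 3, and 16 in PRL. Txnrd1, the cytosolic thioredoxin reductase, had 10 and 9 reads, and Sod3, the extracellular dismutase, had 3 and 4.

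Prolactin and saline were compared to ask what 3 days of the hormone did in the SP kidney. No member passed the adjusted threshold in edgeR or DESeq2, and 0% of the 10696 genes tested passed in edgeR. At an unadjusted p under 0.05, 1 of 61 members was higher in PRL (2.54% of all genes) and none was lower (2.34%). The median log2 fold change was 0.09 over members and 0.03 over all genes, and 38 members were above 0, against 52.6% of all genes. The members' share of 1.64% was below that of all genes. No member was without overlap between the groups, against 0.112% of all genes higher and 0.028% lower. The count of 1 was 5 without SAL 1, 3 without PRL 3 and 2 without PRL 6.

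That member was Txndc15, a thioredoxin domain protein, with a log2 fold change of 1.59 ± 0.45 (adjusted p = 0.273, 95% interval 0.68 to 2.501). It had 2, 5, 0, 3, 1 and 4 reads in SAL 1 to 6 and 17, 11, 3, 6, 5 and 10 in PRL. Its level was 0 to 13.01 CPM in SAL and 11.9 to 28.7 CPM in PRL, with SAL 2 and SAL 6 inside the PRL range. Over the alternatives its log2 fold change stayed between 1.39 and 1.85, with an adjusted p of 0.0882 to 1.00. Cat came next, with 49, 40, 27, 37, 24 and 19 reads in SAL and 82, 120, 26, 32, 34 and 23 in PRL. Its log2 fold change was 0.45 ± 0.24 (adjusted p = 0.999), from 93.9 ± 30.2 CPM to 134 ± 45.3 CPM. PRL 6 and PRL 3 lay inside the SAL range.

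All 7 mu class transferases tested had a log2 fold change above 0, from 0.12 to 0.44, none of them at an unadjusted p under 0.05. These rows may share reads. Gstm6 and Gstm7 had 0.44 ± 0.25 and 0.44 ± 0.27 (adjusted p = 0.999 for both). Gstm6 had 54, 53, 21, 29, 30 and 27 reads in SAL and 79, 145, 19, 24, 34 and 54 in PRL, and the groups overlapped. The glutaredoxin Glrx had 0.65 ± 0.41, from 21 and 38 reads. Of the 4 alpha class genes 3 were below 0, with a range of -0.10 to 0.09. On the lower side by p stood Gstt4, a theta class gene (11 reads in SAL and 6 in PRL, 95% interval -2.59 to 0.59), Gpx1 (-0.17 ± 0.19), Gpx4 (-0.16 ± 0.17), Gclc (-0.23 ± 0.30) and Glrx5, a mitochondrial glutaredoxin (-0.25 ± 0.36), all with an adjusted p of 0.999. The 95% intervals were -0.55 to 0.20 for Gpx1 and -0.50 to 0.19 for Gpx4 on the log2 scale.

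**Figure D4:**
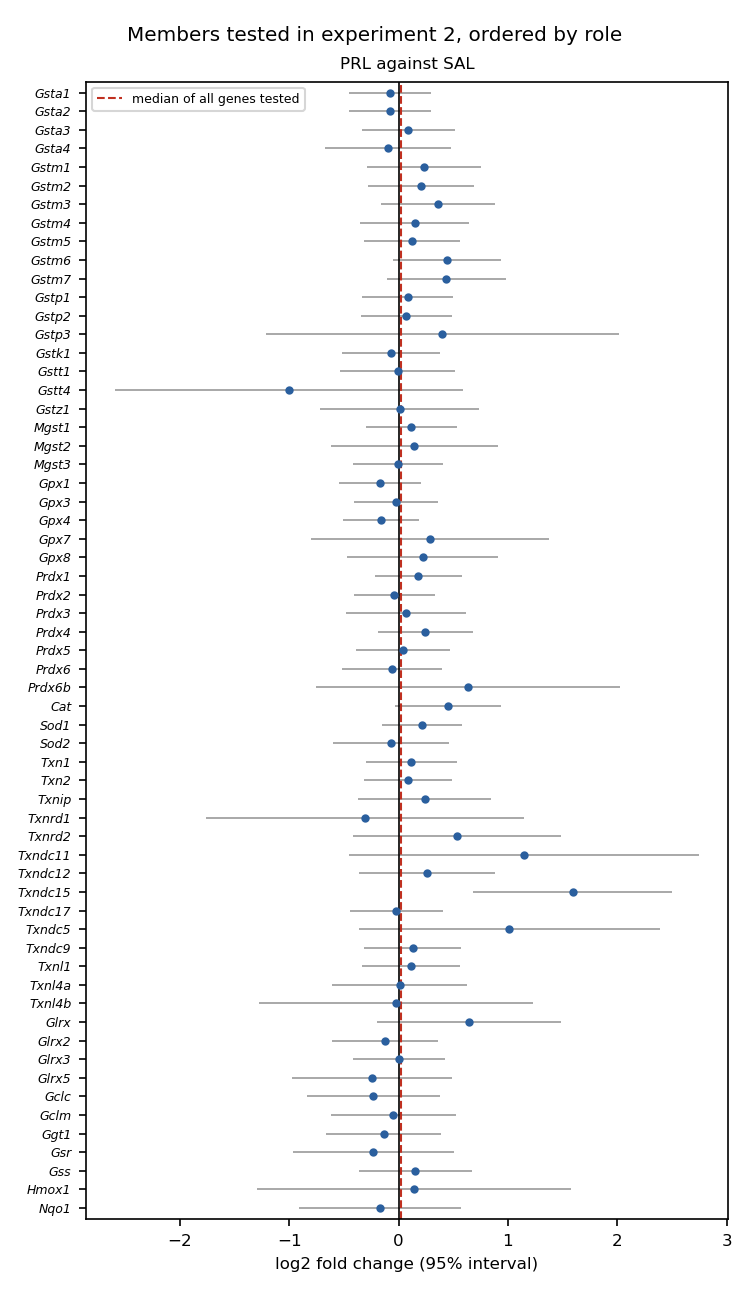
Log2 fold change of PRL against SAL with its 95% interval (horizontal axis) of the 61 members tested in experiment 2 (vertical axis, by role), from 6 against 6 libraries. The black line is 0 and the dashed red line is the median of all 10696 genes tested. Txndc15, at 1.59, is the one member whose interval lies away from 0, and no member passed the adjusted threshold.

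Ratios between members within a library do not depend on library size. The ratio of Prdx1 to Gpx3 reads was 0 to 0.467 in the 12 male libraries (median 0.127) and 1.04 to 1.77 in the 12 female libraries (median 1.15), with no overlap. The Gpx3 row with most reads was another RefSeq transcript in each experiment, but the 2 Gpx3 rows differed by at most 1 read in a library of experiment 1 and 4 in experiment 2. The ratio of Gsta1 to Gsta2 reads was 0.462 to 0.8286 in males (median 0.622) and 0.308 to 0.40 in females (median 0.367), also without overlap. Gpx4 to Gpx3 was 0.0373 to 0.467 in males and 0.312 to 0.536 in females, and those ranges overlapped. Within experiment 2, the Prdx1 to Gpx3 ratio was 1.04 to 1.27 in SAL and 1.10 to 1.77 in PRL. No test was made between experiments.

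**Figure D5:**
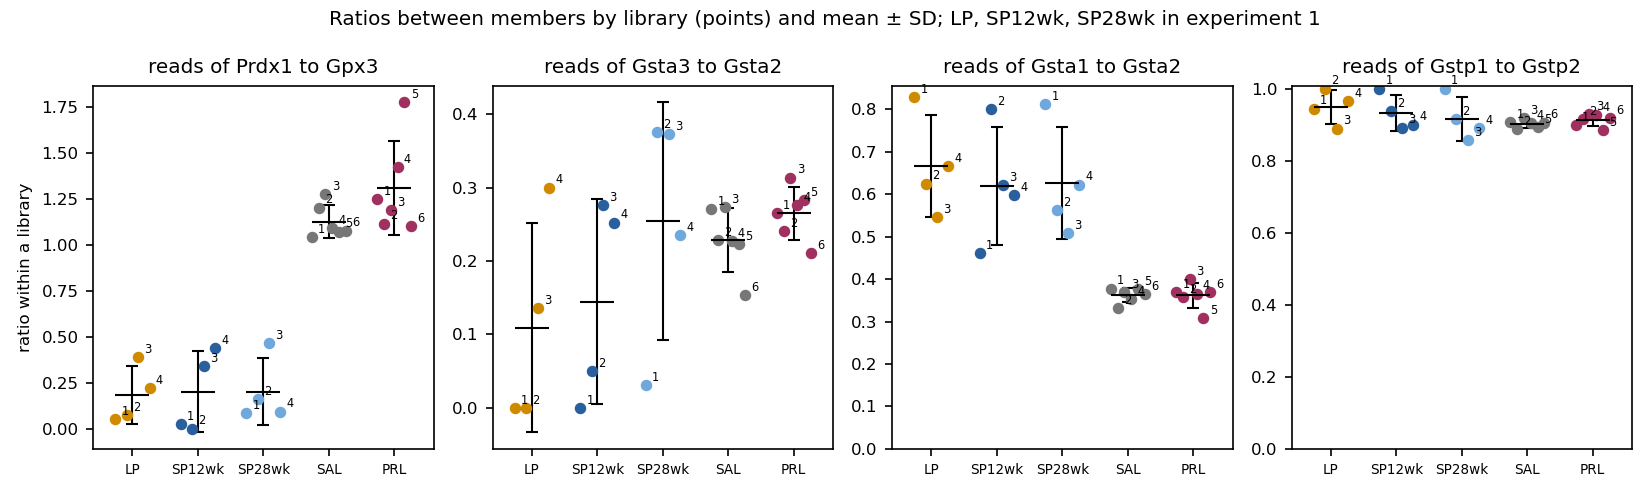
Ratio of reads between 2 members within a library (vertical axes) by group (horizontal axes). Points are libraries with their replicate number, and bars are the mean ± SD of 4 libraries (LP, SP12wk, SP28wk, experiment 1) or 6 libraries (SAL, PRL, experiment 2). Prdx1 to Gpx3 is at most 0.467 in experiment 1 and at least 1.04 in experiment 2, whereas Gstp1 to Gstp2 is 0.857 to 1.00 and 0.886 to 0.929.

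Other genes of the pathway were counted by list. Of 25 genes of glutathione supply and the gamma-glutamyl cycle, 9 were tested in experiment 1 and 18 in experiment 2, and of 14 genes that supply NADPH, 6 and 14. Of 29 regulators and other targets of Nrf2, the factor that induces many antioxidant genes, 16 and 27 were tested. For 20 selenoproteins and methionine sulfoxide reductases the numbers were 11 and 19, for 16 glyoxalase and other glutathione enzymes 7 and 13, and for 29 sources of reactive oxygen 6 and 17. None of these genes passed in PRL against SAL, in SP12wk against LP or in SP12wk against both other groups. In the other 2 comparisons 1 gene of the Nrf2 list passed, the aldose reductase Akr1b3, which makes sorbitol. It had 0, 0, 0 and 1 reads in LP, 0 in every SP12wk library, and 0, 7, 15 and 7 in SP28wk.

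Set against a floor of 3 reads over the SP12wk group, the 29 reads of Akr1b3 in SP28wk gave a ratio of 6.5. This ratio pools the animals of a group and leaves out the error in the 29 reads. In edgeR the adjusted p of SP28wk against SP12wk was 0.00388. Against LP its ratio was 16.9 with a counting interval of 2.81 to 691 (adjusted p = 0.0219 in edgeR). The call against LP was lost without LP 1, LP 2 or LP 3 (adjusted p = 0.117, 0.139 and 0.21), and that against SP12wk without SP12wk 4 (adjusted p = 0.0572). Both were lost with counts added over transcripts (adjusted p = 0.674 and 0.654) and in DESeq2 (adjusted p = 1.00 and 0.996), and the call against LP also with DESeq2's size factors in edgeR (adjusted p = 0.0537) and with the replicate number as a block (adjusted p = 0.0882). Akr1b3 passed the filter in too few libraries to be tested without LP 4 or without SP28wk 2, 3 or 4.

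Marker genes of other cell types were compared in the same fits. Of the markers tested in experiment 1 (4 for blood, 7 for the proximal tubule, 3 for thick limb or distal segments, 1 each for collecting duct and for glomerulus or vessel, and no adrenal, adipose or immune gene), none passed in any comparison. In SP28wk against LP, the proximal tubule list had a median log2 fold change of 0.97 and the blood list of 0.59, against 0.89 over the members. The thick limb and distal list had -0.77, and the single collecting duct and glomerulus or vessel genes 0.74 and -1.02. At an unadjusted p under 0.05, 1 proximal tubule gene was higher and 1 lower. The summed level of proximal tubule markers had a median of 2728 CPM in LP and 2468 CPM in SP28wk. In SP12wk against LP the proximal tubule and blood lists had 0.32 and 0.60, against 0.79 over the members. The thick limb and distal list had 0.10 there, and the collecting duct and glomerulus or vessel genes 0.999 and -0.76. In PRL against SAL none of the markers tested passed (5 for blood, 11 for the proximal tubule, 5 for thick limb or distal segments, 6 for collecting duct, 3 for glomerulus or vessel, 1 adrenal, 3 adipose and 3 immune). The list medians there ran from -0.49 (immune) to 0.66 (adipose), against 0.09 over the members. The proximal tubule list had 0.07 and the blood list -0.13. At an unadjusted p under 0.05, Aqp2 and Cfd were higher and no marker was lower. In SP28wk against SP12wk the proximal tubule list had 0.55, the blood list -0.02 and the thick limb and distal list -1.05. The collecting duct and glomerulus or vessel genes both had -0.26. The part of these cell types in the members' values was not tested.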

How the data were processed

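Kidney cDNA of 24 hamsters was sequenced by nanopore. For the same kit numbers, the methods write direct cDNA and the labels PCR-cDNA. Basecalling by the authors was with Guppy, followed by trimming (Porechop), read selection (Filtlong) and alignment to the mouse genome (Minimap2), and the submitters' processing notes also name Salmon. The counting step is not described in the sources read. Estimated counts for each RefSeq mouse transcript were deposited without normalization, and all value columns were used.

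Here 1 transcript row per gene, that with most counts, was kept, because transcript rows of a gene can repeat the same reads. Counts were rounded and fitted with edgeR 4.0.16 (quasi-likelihood, TMM) in R 4.3.3, 1 fit per experiment without covariates, for genes counted in 4 or more of 12 libraries (experiment 1) or 6 or more (experiment 2). The threshold was a two-sided Benjamini-Hochberg adjusted p of 0.05 over all genes tested. SE is the size of the log2 fold change over the square root of F, and 95% intervals use it. CPM is the count over the library total of these rows. Ratios of groups with 1 to 3 reads have exact binomial intervals, which cover counting error only.

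Members and lists were chosen with earlier results of these data known. Genes given with a test were the members with the smallest p, up to 5 per direction in SP12wk against LP and SP28wk and in PRL against SAL and up to 3 in the other comparisons, every member past the threshold, and Gsta1 and Gstm3. Genes given by reads were the 12 with most reads and the core enzymes. The labels list replicates as separate samples, which the methods describe as animals of a group. In no pair of a group (18 and 30 pairs) did the counts agree within sampling noise. Alternatives were counts added over transcripts, DESeq2 1.42.0, its size factors in edgeR, no filter, a stricter filter (8 of 12, 12 of 12), a replicate block, and leaving out each library. No sequences are shown, since no reference was used here.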

Additional observations from a re-analysis of the deposited data

Results flagged for a closer look

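Values were screened for a library far from the others of its group, by the gap to the nearest library over the range of the group, over 90 sets of values in experiment 1 and 62 in experiment 2. Chance puts about 1 in 20 sets of continuous values past the limit, a rate that does not hold for sparse counts, where 1 library with reads among libraries at 0 passes by construction. In experiment 1, 13 passed and in experiment 2, 6 did.

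In experiment 1 all but 1 of the 13 were a few reads in a library whose group was otherwise at 0. They were Gclc in SP12wk 4 (84.8 CPM, 3 reads), Ggt1 in LP 4 (116.5 CPM, 3 reads), Sod2 in LP 2 (56.1 CPM, 1 read), Hmox1 in SP12wk 3 (50.2 CPM, 1 read) and Nqo1 in LP 1 (47.0 CPM, 1 read). LP 4 had 1 read, or 38.8 CPM, of each of Gss, Gsr and Gstm4. SP12wk 4 had 1 read, or 28.3 CPM, of each of Gss and Prdx3, and SP28wk 3 had 1 read, or 28.6 CPM, of each of Nqo1 and Gstm5. Txndc17 in SP28wk 1 was at 316 CPM (8 reads), against 712 to 788 CPM in the other 3 libraries.

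In experiment 2, Gpx1 in PRL 3 was at 621 CPM (157 reads), against 948 to 1074 CPM in the other 5 PRL libraries. PRL 3 had the lowest share of reads on members of all libraries of experiment 2. SAL 3 was high for 3 sparse genes, Hmox1 at 32.0 CPM (7 reads), Gstt4 at 27.4 CPM (6 reads) and Sod3 at 9.13 CPM (2 reads). Nqo1 in PRL 5 was at 80.4 CPM (14 reads), against 7.91 to 30.4 CPM in the other PRL libraries. Glrx in SAL 6 was at 3.20 CPM (1 read), against 9.13 to 12.2 CPM.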

How the results depend on the processing

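The number of members past the adjusted threshold was 0 in all 5 comparisons. It stayed at 0 under every alternative except leaving out single libraries, over which it ranged from 0 to 1 in SP12wk against LP and from 0 to 5 in SP28wk against LP, in both cases through LP 4 and in the second also through SP28wk 1. Over the same libraries left out, the log2 fold change of Gclc in SP28wk against LP ranged from -1.496 to 0.1924 (above 0 without LP 3) and that of Glrx3 from -0.5711 to 0.1339 (above 0 without LP 4). No other fold change of a named member turned where the member was tested. The cause was not tested. In experiment 1 Gstm5 and Gss had a read in 4 libraries, so that neither was tested when a library with a read of it was left out.

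Counts over all genes moved more. In SP28wk against LP, 11 genes passed, with 8 to 56 over the libraries left out (56 without LP 4, 30 without SP28wk 1), 2 in DESeq2, 5 under the stricter filter and 0 with counts added over transcripts. In SP28wk against SP12wk 7 passed, with 2 to 11 over the libraries left out, 2 in DESeq2, 2 under the stricter filter and 0 with added counts. In SP12wk against LP 1 passed, with 0 to 9, and in SP12wk against both groups 2, with 0 to 2. In PRL against SAL 0 genes passed (272 higher and 250 lower at an unadjusted p under 0.05, and 0 in DESeq2), with 0 to 44 over the libraries left out, 92 without a filter and 31 without SAL 6, PRL 3 and PRL 6, left out together by a choice made on seeing the data, as the 3 with most counts of Gm32262.

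Deviations of same-numbered libraries were weakly correlated (-0.0949 to 0.17 in experiment 1 and -0.146 to 0.201 in experiment 2). For libraries of different number the correlations were -0.179 to 0.195 and -0.198 to 0.177. No pairing by number was seen, but such weak correlations cannot exclude one. With the replicate number as a block, 0 members passed in each comparison, the members higher at an unadjusted p under 0.05 in SP12wk against LP and SP28wk were 3 in place of 8, and 52 genes in place of 0 passed in PRL against SAL. Depth limits the sparse members of experiment 1, where 1 read was worth 17.4 to 63.7 CPM.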
